A study of Homo sapiens with 3 samples.

Results

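The starts of 8 genes for pluripotency factors were examined for binding by Idax in HEK293T cells: POU5F1 (which encodes OCT4), NANOG, SOX2, KLF4, MYC, LIN28A, LIN28B and SALL4. The genes were chosen by name, and a gene counted as occupied when at least 1 base of a listed peak lay within 5 kb of its start site on hg19. The wild-type list held 6 such peaks among its 17089, and they belonged to 5 of the 8 genes. The mutant list held none such among its 38 peaks. POU5F1 and NANOG were taken as the 2 genes with CpG-poor promoters, and the other 6 as CpG-rich.

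The data are chromatin immunoprecipitation with sequencing (ChIP-seq) from HEK293T, a human embryonic kidney line transformed by adenoviral DNA that also carries the SV40 large T antigen. Stable lines had received Myc-tagged wild-type Idax (Myc-Idax), a Myc-tagged mutant of its DNA-binding function (Myc-IdaxDBM) or an empty vector, and an anti-c-Myc affinity gel was used on all 3. Per the series' design text there were 2 replicates per condition and binding sites were called over the empty-vector cells. Each tagged protein had 1 peak list here, so no value below has a replicate error and nothing was tested between the conditions, and the read depth is unknown. The labels do not say whether a stable line was 1 clone. The Myc tag is a stretch of the human MYC protein, so the gel can also bind the cells' own MYC, which the empty-vector cells carry too. Its part in the peaks was not tested.

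Idax, the product of CXXC4, is a small protein with a CXXC zinc finger, a fold that binds DNA with unmethylated CpG, the form usual in CpG islands. CXXC4 is thought to have split off from an ancestral TET2 gene, and TET2 is an enzyme that oxidises 5-methylcytosine. The 8 genes encode the transcription factors that hold embryonic stem cells in the pluripotent state (OCT4, SOX2, NANOG, SALL4), the other 2 factors of the classic reprogramming mixture (KLF4 and MYC), and a pair of RNA-binding proteins that block maturation of the let-7 microRNAs (LIN28A and LIN28B). HEK293T is not a pluripotent line.

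The CpG classes could be compared with sequence for 4 of the 8 genes, NANOG, SOX2, KLF4 and LIN28B, from RefSeq promoter windows of build GRCh38.p14 that run from 250 bases before to 50 after a start. No promoter sequence was used for POU5F1, MYC, LIN28A or SALL4. The 250 bases upstream of each start are shown 5′ to 3′ on the strand of the gene, with every CpG in capitals, because CpG content is what separates the 2 classes. They lie at chr12:7789152-7789401 (NANOG, plus strand), chr3:181711675-181711924 (SOX2, plus strand), chr9:107489770-107490019 (KLF4, minus strand), and chr6:104940715-104940964 and chr6:104956857-104957106 (the upstream and downstream starts of LIN28B, plus strand), all on GRCh38.p14. These positions are of another build than the peaks and were not converted.
NANOG: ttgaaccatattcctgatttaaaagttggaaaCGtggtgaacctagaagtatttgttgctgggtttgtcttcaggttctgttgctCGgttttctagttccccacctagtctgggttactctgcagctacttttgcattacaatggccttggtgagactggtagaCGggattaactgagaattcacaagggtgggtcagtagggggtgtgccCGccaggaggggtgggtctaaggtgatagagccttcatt
SOX2: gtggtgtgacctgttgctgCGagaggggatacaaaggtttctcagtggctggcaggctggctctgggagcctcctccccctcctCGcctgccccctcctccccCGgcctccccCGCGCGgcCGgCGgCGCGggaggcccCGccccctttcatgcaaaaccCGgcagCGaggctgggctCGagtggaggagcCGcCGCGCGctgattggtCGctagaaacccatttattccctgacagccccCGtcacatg
KLF4: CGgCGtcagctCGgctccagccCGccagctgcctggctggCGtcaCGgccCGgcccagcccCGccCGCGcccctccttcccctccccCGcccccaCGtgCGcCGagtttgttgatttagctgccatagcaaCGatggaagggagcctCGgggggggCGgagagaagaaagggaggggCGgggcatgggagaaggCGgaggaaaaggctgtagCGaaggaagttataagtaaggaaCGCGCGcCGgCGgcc
LIN28B, upstream start: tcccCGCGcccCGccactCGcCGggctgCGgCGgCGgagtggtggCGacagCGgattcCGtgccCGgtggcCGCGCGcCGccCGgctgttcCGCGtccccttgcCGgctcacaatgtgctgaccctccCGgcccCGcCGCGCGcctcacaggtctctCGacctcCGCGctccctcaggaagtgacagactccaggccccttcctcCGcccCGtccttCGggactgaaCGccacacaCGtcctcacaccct
LIN28B, downstream start: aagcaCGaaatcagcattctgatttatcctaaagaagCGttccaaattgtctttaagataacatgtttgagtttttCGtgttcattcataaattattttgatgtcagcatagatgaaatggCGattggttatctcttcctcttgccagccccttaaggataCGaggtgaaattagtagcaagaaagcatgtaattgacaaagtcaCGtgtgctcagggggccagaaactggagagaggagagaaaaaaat

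Over the whole windows, the NANOG promoter held 5 CpG, with a GC content of 46.7% and an observed over expected CpG ratio of 0.32. Of the 35116 RefSeq promoters, 34.7% had a lower ratio, and the median promoter had 14 CpG and a ratio of 0.58. The SOX2 window held 20 CpG at 63.3% GC, with a ratio of 0.67. That ratio was above those of 55.5% of promoters, so SOX2 lay near the middle of the range. The KLF4 window was richer, with 33 CpG, 69% GC and a ratio of 0.93. NANOG thus had the lowest CpG number and ratio of the 5 windows, as its class says.

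LIN28B had 2 starts in the RefSeq table, 16142 bp apart, and only the upstream one had the CpG number and GC content of a CpG-rich promoter. Its window held 37 CpG at 73% GC with a ratio of 0.98. The window of the downstream start held 8 CpG at 39% GC, fewer CpG than the median promoter, although its ratio of 0.72 was not low because C and G were themselves scarce. A minimum ratio of 0.6 together with a minimum GC of 50% was met by the windows of SOX2, KLF4 and the upstream LIN28B start. It was not met by NANOG or by the downstream LIN28B start, and it was met by 46.9% of all promoters. The hg19 start used for LIN28B was not matched to either of the 2, so the class of LIN28B is uncertain here.

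**Figure D1:**
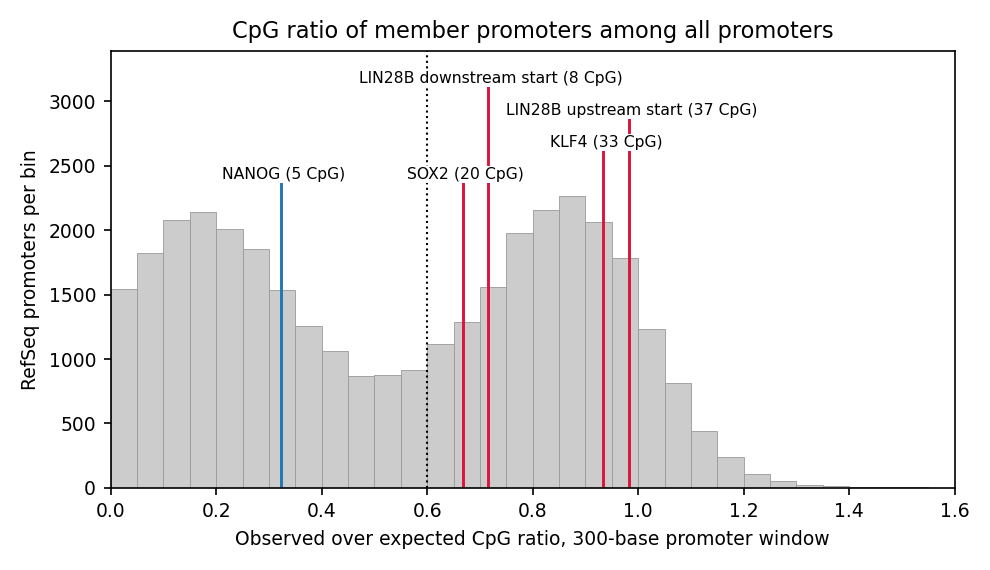
Histogram of the observed over expected CpG ratio (x axis) for RefSeq promoter windows on GRCh38.p14 (y axis, promoters per bin), with vertical lines at the members that had a sequence and a dotted line at 0.6. NANOG lies at 0.32 on the low side of the dotted line and the other 4 starts lie on the high side, and 5 promoters with a ratio above 1.6 fall outside the axis.

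Wild-type Idax peaks lay at SOX2, KLF4, MYC, LIN28B and SALL4, and none lay within 5 kb of POU5F1, NANOG or LIN28A. All 5 occupied genes had been taken as CpG-rich (5 of 6), and none of the 2 CpG-poor genes was occupied. The 5 include LIN28B, whose class is uncertain here because only its upstream RefSeq start met both the ratio and the GC minimum. They also include MYC and SALL4, whose class was not compared with sequence. Neither was that of POU5F1, so NANOG was the only CpG-poor gene compared with sequence. For scale, tiles of 10 kb, as wide as the windows around the starts, were laid over the span of the list, and 5.66% of them held a wild-type peak. Most tiles hold no gene start, so this share is a background for position in the genome and not for promoters. The genes are not replicates of a class and only 2 were CpG-poor, so no test between the classes was made. LIN28A departs from the pattern by its class, and its CpG content was not measured here.

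**Figure D2:**
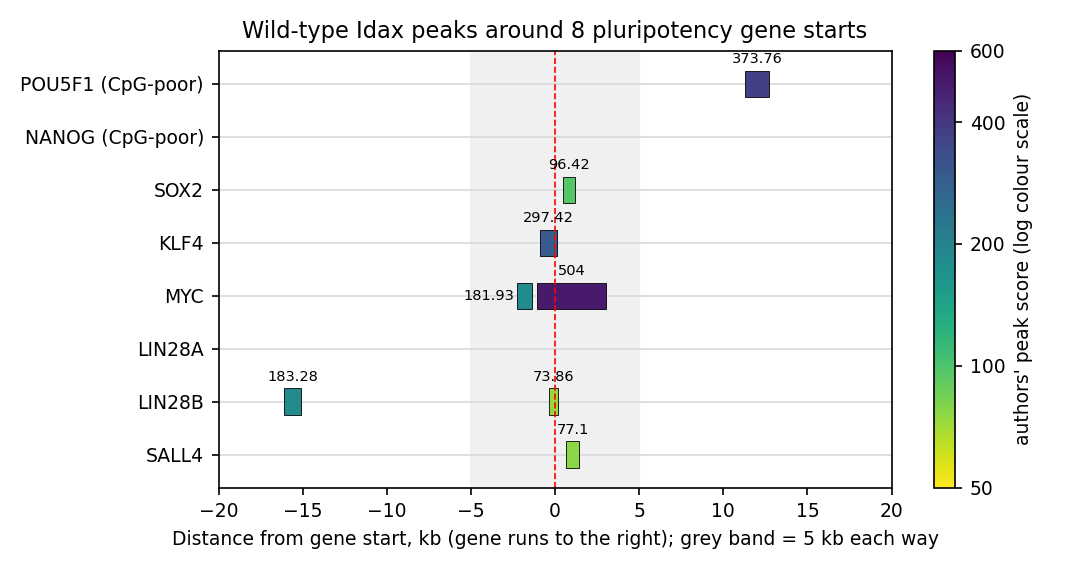
Map of wild-type peaks (coloured bars, authors' score printed beside each) by distance in kb from each gene's start (x axis, upstream to the left), 1 row per gene, out to 20 kb. Bars inside the grey band of 5 kb each way occur at SOX2, KLF4, MYC, LIN28B and SALL4, while POU5F1 and LIN28B have a further bar outside it and NANOG and LIN28A have none in view.

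Among the reprogramming factors, MYC, a basic helix-loop-helix factor that drives growth and the cell cycle, had the strongest and the broadest occupancy. Its start on chromosome 8 at 128748315 was covered by a peak from 128747222 to 128751364, which scored 504 over 4143 bp. The peak ran from 1093 bp upstream to 3049 bp downstream of the start. Its score ranked 2864 in the list, with 83.2% of peaks scoring lower, and 99.7% of peaks were narrower. The score was nonetheless low for such a width: the 55 wild-type peaks within 10% of this width had a median score of 1004, and 5 of them scored lower. A second, narrower peak lay 290 bp further upstream, from 128746081 to 128746931, and scored 182 over 851 bp. MYC was the one gene of the 8 with 2 peaks within 5 kb, and merging neighbours less than 1 kb apart joins them.

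KLF4, a zinc finger factor that partners OCT4 and SOX2 in reprogramming, had 1 peak at its start. The peak on chromosome 9 ran from 110251955 to 110252942 and scored 297 over 988 bp. KLF4 is read from the minus strand, and the peak reached from 895 bp upstream to 92 bp downstream of the start at 110252047, so most of it lay over the promoter side. Its score ranked 6526, above 61.8% of the list, and the median score of the 2919 peaks of like width was 189. KLF4 and MYC were the only 2 genes of the 8 with a peak above the list's median score of 223.

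SOX2, the HMG-box partner of OCT4, was occupied inside the gene and not over its start. The peak on chromosome 3, from 181430214 to 181430913, was not over the CpG shown upstream of the start: it began 502 bp and ended 1201 bp downstream of the start at 181429712. SOX2 has a single exon of 2512 bp in RefSeq, so the peak lay within that exon. It scored 96.4 over 700 bp, ranked 13505 and exceeded 21% of the list. Peaks of like width had a median score of 83.5, so for its width the peak was not weak.

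SALL4, a zinc finger factor that binds the POU5F1 promoter in stem cells, was likewise occupied downstream of its start. The gene is on the minus strand of chromosome 20 with its start at 50419048, and the peak from 50417598 to 50418387 lay 661 to 1450 bp into the gene. It scored 77.1 over 790 bp, ranked 14666 and exceeded 14.2% of the list. The median score at like width was 110, so this peak was weak for its width as well as in the list.

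Of the LIN28 pair, LIN28B had a peak over its start and LIN28A had none. The LIN28B peak on chromosome 6, from 105404555 to 105405127, spanned 368 bp upstream to 204 bp downstream of the start at 105404923. It had the lowest score of the 6 member peaks, 73.9 over 573 bp, and ranked 14915, above 12.7% of the list. The 983 peaks of like width had a median score of 64.4, so for its width this peak was not weak. A second wild-type peak outside the window, from 105388835 to 105389838, was stronger with a score of 183 over 1004 bp. It lay 15085 to 16088 bp upstream of the hg19 start. The RefSeq upstream start shown above, which held 37 CpG, lies 16142 bp from the downstream start on GRCh38.p14. These distances are from different builds, and the second peak was not assigned to either start.

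By score alone, the 6 member peaks thus fell into a stronger set at MYC and KLF4, with scores of 182 to 504, and a weaker set at SOX2, SALL4 and LIN28B, with scores of 73.9 to 96.4. The second MYC peak, at 182, was nonetheless below the list's median of 223. All 3 of the weaker peaks were below the lower quartile of the wild-type list, 109, but at like width only the SALL4 peak of these 3 was below the median. In the stronger set, the broad MYC peak was below its like-width median of 1004. The KLF4 peak and the second MYC peak were above theirs, 189 and 131. The split thus does not hold once width is considered. With a minimum score of 100, the occupied genes numbered 2 (KLF4 and MYC), against 4.69% of 10 kb tiles.

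**Figure D3:**
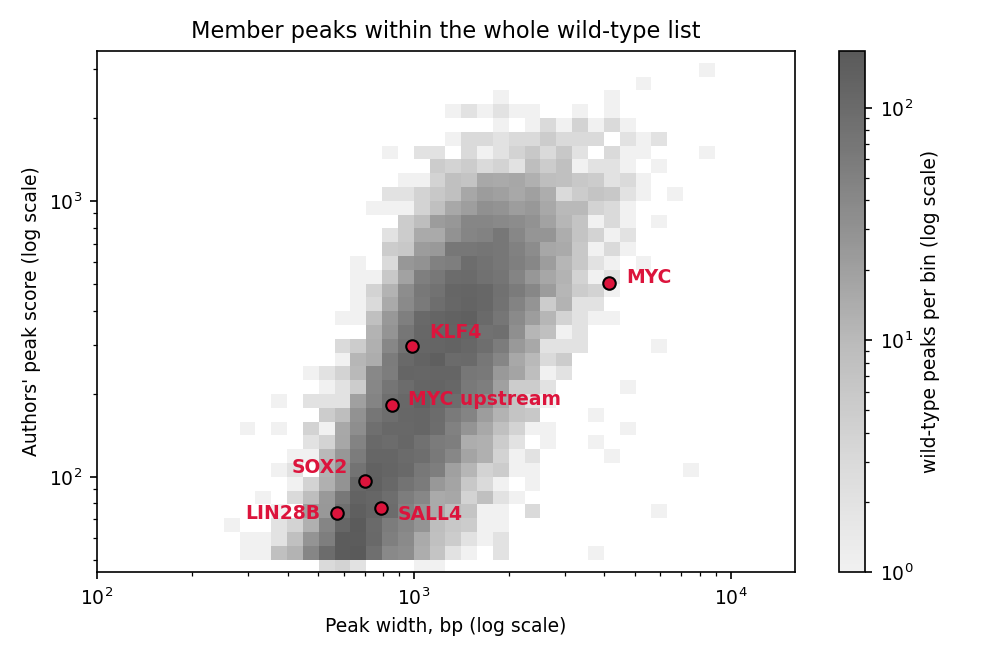
Authors' score (y axis, log scale) against width in bp (x axis, log scale) for the 17089 wild-type peaks, shaded by number per bin, with the 6 member peaks as red points. LIN28B, SALL4 and SOX2 sit in the low, narrow corner at scores of 73.9 to 96.4, and the broad MYC peak sits in the lower part of the scores of peaks as wide as its 4143 bp.

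POU5F1, the homeodomain factor at the centre of the network, had no wild-type peak closer than 11304 bp. That peak, on chromosome 6 from 31125710 to 31127147, scored 374 over 1438 bp and lay beyond the gene's downstream end, since POU5F1 is 6346 bp long in RefSeq. The nearest on the upstream side was 26170 bp away, from 31164621 to 31166311, with a score of 496. Both of these flanking peaks scored higher than the peaks at KLF4, SOX2, SALL4 and LIN28B. In RefSeq order the protein-coding neighbours of POU5F1 are TCF19 and CCHCR1 on its downstream side and HLA-C on its upstream side. Neither peak was assigned to a neighbour, because no hg19 gene positions were used beyond the 8 starts.

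NANOG, a homeodomain factor that stabilises the pluripotent state, also had no wild-type peak near its start. The nearest one, on chromosome 12 from 8122888 to 8123953, was 180896 bp downstream of the start at 7941992 and scored 469. The stretch without a peak around the NANOG start measured 529801 bp, and 93.4% of all such stretches between neighbouring wild-type peaks were shorter (median 52569 bp). That share counts stretches and not positions. A given position falls more often in a long stretch than in a short one, so the share makes the NANOG start look more unusual than it is. NANOG was the only one of the 8 genes without a peak within 50 kb, and 31.8% of 100 kb tiles held a peak. Both POU5F1 and NANOG have processed copies elsewhere in the genome. The sources used here do not say how reads that match several places were treated, and its part in the missing peaks was not tested.

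LIN28A had its nearest wild-type peak 21037 bp downstream of its start at 26737269 on chromosome 1. That peak, from 26758306 to 26759221, scored 402 over 916 bp and lay past the gene's 18912 bp in RefSeq, on the side of its neighbour DHDDS. The nearest upstream peak was 46494 bp away and scored 69.3. The start of LIN28A lay in a stretch of 67530 bp without a peak, longer than 56.6% of such stretches. As at NANOG, this share counts stretches and not positions, so it does not make the LIN28A start a middling position.

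The window mattered little between 1 and 10 kb. The same 5 genes were occupied at 1, 2 and 10 kb each way, where 1.77%, 2.8% and 9.94% of tiles as wide as those windows held a peak. No peak had its nearest base between 1384 and 11304 bp from a start: the farthest counted was the second MYC peak at 1384 bp, and the nearest not counted was that of POU5F1 at 11304 bp. At 25 kb each way POU5F1 and LIN28A were added, making 7 genes, and 20.2% of tiles held a peak. At 50 kb the count was again 7, and 31.8% of tiles held a peak.

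POU5F1 and LIN28A, which had no peak of their own, lay in densely occupied regions. POU5F1 had 27 wild-type peaks within 500 kb of its start, LIN28A had 24 and NANOG had 7. The occupied genes had fewer, namely 6 at LIN28B, 5 at SALL4, 3 at KLF4, 3 at MYC and 1 at SOX2, their own peaks included. The list as a whole held 5.7 peaks per Mb, and NANOG, LIN28B and SALL4 lay near that density. Within 5 Mb, 24.5% of 10 kb tiles held a peak around POU5F1, 13.8% around LIN28A and 9% around NANOG, and 2.8% (MYC) to 5.8% (SOX2) around the occupied genes. Over all tiles the share was 5.66%, which SOX2 and SALL4 (5.3%) were close to. The whole chromosome gave 6.88% for LIN28A, 6.33% for NANOG, and 5.91% for both POU5F1 and LIN28B, which lie on the same chromosome. For the remaining occupied genes it gave 6.91% for SALL4, 4.93% for KLF4, 4.72% for SOX2 and 3.8% for MYC. Over whole chromosomes, the shares of occupied and unoccupied genes thus overlapped. This comparison was chosen after the values were seen and has no test.

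**Figure D4:**
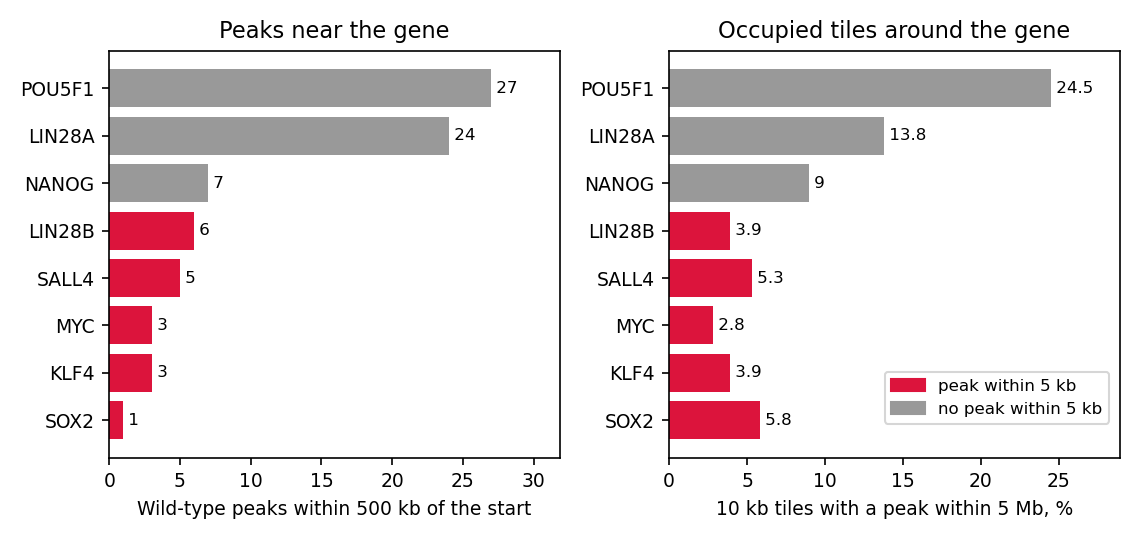
Number of wild-type peaks within 500 kb of each start (left, x axis) and percent of 10 kb tiles within 5 Mb that held a peak (right, x axis), 1 bar per gene (y axis), red where a peak lay within 5 kb. POU5F1 (27 peaks, 24.5% of tiles) and LIN28A (24 peaks, 13.8%) stand above the list's 5.7 peaks per Mb and 5.66% of tiles, while NANOG (7 peaks), LIN28B (6) and SALL4 (5) lie near that density.

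SOX2 had the most isolated peak of the 6. Its nearest other wild-type peaks were 722331 bp before it and 723248 bp after it, and 99.2% of wild-type peaks had a closer neighbour. The median gap to the nearest other peak was 23188 bp over the list. KLF4 was isolated on one side only, with 63949 bp to the next peak towards the gene's downstream end and 1442980 bp on the upstream side. The MYC pair had 1174989 bp without a peak on its upstream side and 54632 bp on its downstream side.

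The DNA-binding mutant had no peak within 5 kb of any of the 8 starts, nor at 50 kb each way. Of the 10 kb tiles, 0.0124% held a mutant peak, as did 0.124% of the 100 kb tiles, so a count of 0 of 8 is near this background and says nothing particular about these genes. Chromosomes 3, 6, 8, 12 and 20, which carry 6 of the genes, held no mutant peak at all. The nearest mutant peak to LIN28A was 9.82 Mb away and the nearest to KLF4 27.7 Mb away. All mutant peaks scored between 50.4 and 94.5, so the peaks at MYC, KLF4 and SOX2 scored above the whole mutant list, while those at SALL4 and LIN28B were within its range. The scores come from separately called lists, no test was made between them, and the amount of tagged protein in each line is not in the lists.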

How the data were processed

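The authors deposited 1 peak list per tagged protein, and the empty-vector reads were not analysed here. Bowtie 0.12.7, MACS 1.4.1 and hg19 are named in the submitters' processing notes, without parameters. The way replicates were combined is not stated. Scores are the authors' deposited values, and their scale is not stated in the lists. They were used to rank and describe peaks within a list. The one exception is the range of the mutant scores, which was set beside the member peaks without a test. Other deposited columns, the start and end of each peak, are positions in bases, and starts were converted to 1-based.

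Distances were measured from the 8 given hg19 starts to the nearest base of a peak. Strand came from RefSeq or, for POU5F1, MYC, LIN28A and SALL4, from general annotation knowledge. Tiles of 10001 bp covered each chromosome between its outermost wild-type peaks. CpG measures came from RefSeq promoters (GRCh38.p14), which matched 4 of the 8 genes. The observed over expected ratio is the CpG number times the length, divided by the product of the C and G numbers. All 8 genes were described, by rule. The members and lists were chosen with earlier results of these data known. The counting code was tested on 100 simulated lists with planted peaks and 100 with planted tiles, all recovered. No simulated peak had its nearest base close to the window edge or crossed between tiles, so those cases were not tested. Alternatives were other windows, a minimum score of 100, midpoints, merging and other CpG measures. The tools were pandas 2.3.3 and numpy 2.4.6 under Python 3.11.15, with SciPy 1.17.1 for intervals and matplotlib 3.10.9 for plots.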

Additional observations from a re-analysis of the deposited data

How the results depend on the processing

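Leaving out replicates was not possible with a single list for each protein. No paired analysis was possible because the 2 peak lists carry no replicate numbers. Of 37 alternatives, 31 stayed within 1.5 times the count, or inside the interval, of the result they bear on. These are not independent checks. All of the mutant counts and most of the CpG-poor counts were 0 set beside 0. Most of the CpG-rich counts repeat the genes counted among all members. No mutant peak reached a score of 100, so that alternative could not move. With a minimum score of 100, the occupied genes fell from 5 to 2, which is also the count among CpG-rich genes (2 of 6), and the share of 10 kb tiles with a wild-type peak was 4.69% in place of 5.66% (exact Clopper-Pearson 95% interval 5.58 to 5.75, counting error only). That share was 5.07% when the midpoint had to lie in the tile. With 25 or 50 kb each way, both chosen after seeing the data, the occupied CpG-poor genes numbered 1 (POU5F1) in place of 0. Depth is unknown, so whether weak peaks at SOX2, SALL4 and LIN28B, or missing ones elsewhere, depend on it was not tested.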

Other observations

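Promoter CpG content was also measured at other genes of the pluripotency network. A list of 40 such genes was written down, and 29 of them had a RefSeq promoter window on GRCh38.p14. All listed starts met the ratio of 0.6 and the GC content of 50% in 17 of these genes, no start did in 9, and the starts differed in 3 (KLF5, NR5A2 and SMAD3). As shares, all starts met both in 58.6% and none did in 31% of the 29 genes, beside 42.4% and 49.8% of the 27305 genes in the table. No test of this was made. Among those without such a start were the germ cell and stem cell genes DPPA2 (7 CpG, ratio 0.36) and DPPA4 (5 CpG, ratio 0.35), and GDF3, a ligand of the TGF-beta family, with 1 CpG and a ratio of 0.07. Among those with one were UTF1 (39 CpG, ratio 1.02), a chromatin factor of stem cells, and SALL3 (59 CpG, ratio 1.15), a relative of SALL4. Genes with a shared name stem, which need not be relatives, differed. DPPA5 (20 CpG, ratio 0.64) had such a start and DPPA3 (6 CpG, ratio 0.55) did not. SALL2, another relative of SALL4, did not either (3 CpG, ratio 0.22). Idax peaks at these genes were not analysed here.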
